A study of Homo sapiens with 4 samples.

Results

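The genes described here encode subunits of respiratory complex I and the factors that assemble it. They were taken from a list of 43 gene symbols, and each was read from the probe set annotated to that symbol alone, the one of highest mean where there were several. This gave values for 39 of the 43 genes, out of 19775 genes with such a probe set on the array. BT474 is an established cell line from a human breast cancer that carries extra copies of ERBB2. Its cells had been kept for 24 h in fresh regular DMEM with 0.5 mM AICAR (2 arrays) or with vehicle (2 arrays), and their total RNA was read on Affymetrix arrays. AICAR is a nucleoside that cells turn into ZMP, which mimics AMP and so switches on the kinase AMPK; the sources used here do not name the vehicle. The study used 1 cell line, and the labels do not say whether replicates came from different dishes, so each p-value describes only the spread between these arrays, which may be technical. The comparison asked how transcripts of this enzyme stood after a day of AICAR.

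Complex I, NADH:ubiquinone oxidoreductase, is the entry point for electrons from NADH into the mitochondrial respiratory chain. It is L-shaped: a peripheral arm in the matrix oxidises NADH (the N module) and passes electrons along iron-sulphur clusters to ubiquinone (the Q module), while a membrane arm pumps protons. Core subunits carry out the chemistry, supernumerary subunits surround and stabilise them, and assembly factors build the modules and then leave. AMPK and the coactivator PGC-1α are known from other work for inducing mitochondrial genes in muscle. The subunits encoded by mitochondrial DNA were not analysed here.

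Few complex I transcripts passed the test with AICAR. Of 39 genes tested, 1 rose and 0 fell at an adjusted p under 0.05 (limma, Benjamini-Hochberg over all genes) (8 positive and 3 negative members had an unadjusted p below 0.05, as had 12.8% of all genes on the positive and 13.3% on the negative side). The share called was 2.56%, while 9.82% of all 13842 genes tested were called, 4.63% higher and 5.19% lower (641 and 718 genes, but 854 and 624 after quantile normalization). That order turned round with a trend and robust variances, where 10 members passed (25.6%, against 17.8% of all genes). The gene that rose was NDUFA7, a supernumerary subunit of the peripheral arm. The median difference over the 39 genes was 0.09 (log2, AICAR minus vehicle), beside 0.01 over all genes tested, but 0.0373 when the probe sets of each gene were averaged. Differences were positive for 24 members (61.5%, against 52.4% of all genes) and ran from -0.27 to 0.42. In these bulk samples, fewer cells of a type and less RNA per cell cannot be told apart.

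The 95% confidence intervals of the other 38 members reached from -0.43 to 0.43 (log2) at the widest. The median standard error of a member was 0.0696, somewhat below the 0.0772 of all genes. Every member lay well above the bound for dim genes of 6.11 (log2), the lowest vehicle mean being 9.40 for ECSIT. Array by array, the median member stood 0.07 and 0.09 above the vehicle mean on the AICAR arrays, while the vehicle arrays stood at -0.03 and 0.03. The same medians over all genes were 0.0042 and 0.01 with AICAR and 0.0044 and -0.0044 with vehicle.

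The groups were separate on the arrays for most members. For 20 of the 39 genes (51.3%) both AICAR arrays lay above both vehicle arrays, against 28.5% of all genes tested. For 11 genes (28.2%) both AICAR arrays lay below, against 28% of all genes, and for 8 the groups overlapped. No set test was made of these shares, and members are not replicates of the condition.

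**Figure D1:**
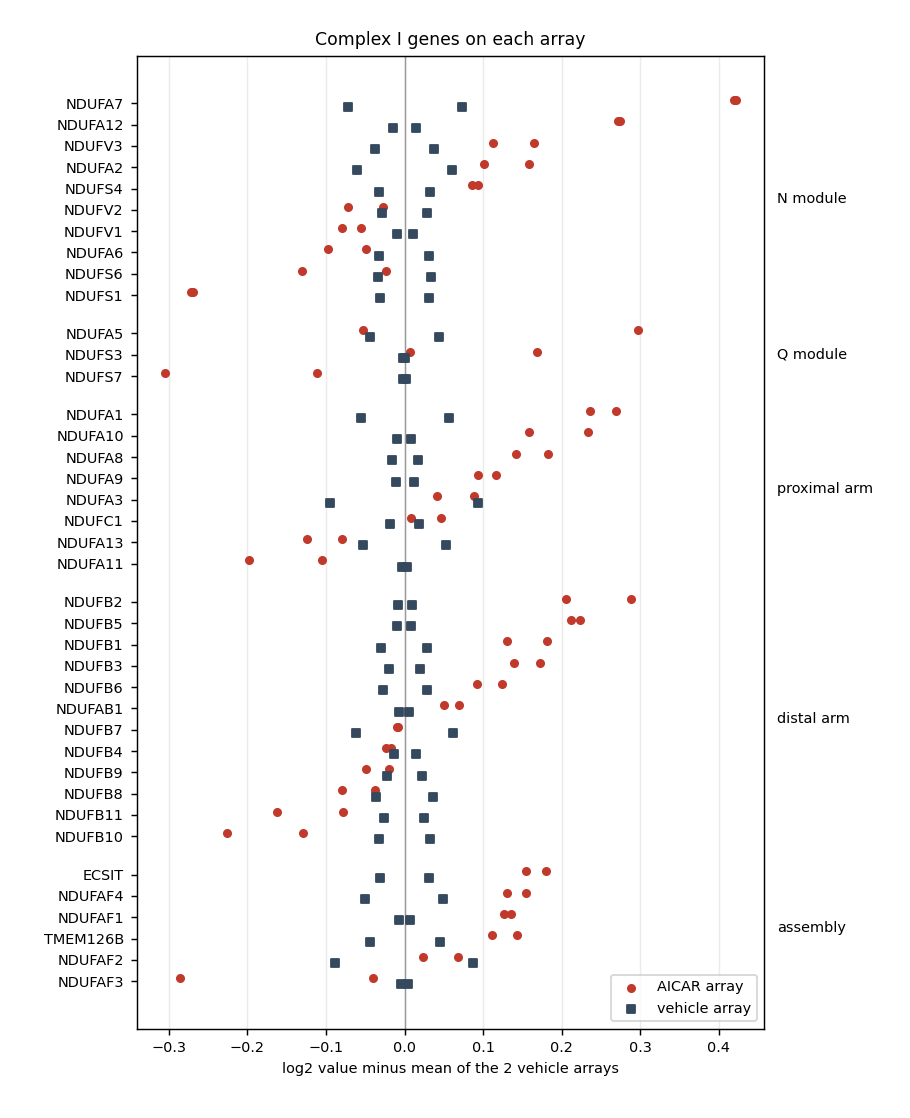
Each of the 39 complex I genes on each array, as the log2 value minus the mean of the 2 vehicle arrays (x axis); circles are AICAR arrays, squares are vehicle arrays, and genes are grouped by role (N and Q modules, proximal and distal membrane arm, assembly). NDUFA7 stands farthest to the right, with both AICAR arrays 0.42 above the vehicle mean, and NDUFA5 has AICAR arrays that lie far apart.

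In the N module, which takes electrons from NADH, 1 of 10 genes rose and 0 fell (10% called, against 9.82% of all genes). Differences were positive for 5 and negative for 5 (50% positive, against 52.4% of all genes), with a median of 0.02 (log2). At an unadjusted p below 0.05 (limma) there were 2 positive and 1 negative, against 12.8% and 13.3% of all genes. NDUFA7 measured 10.69 and 10.69 (log2) on the AICAR arrays, against 10.19 and 10.34 on the vehicle arrays. Both AICAR arrays lay above both vehicle arrays, which differed from each other more than the AICAR arrays did. NDUFA7 was 1.34-fold higher with AICAR (log2 difference 0.42, SE 0.0770, 95% confidence interval 0.24 to 0.61, limma adjusted p = 0.0249), and ranked 699 of 13842 genes by p. Its other, dimmer probe set differed by 0.30 (unadjusted p = 0.0546). The call rested on all 4 arrays: without any 1 of them NDUFA7 did not pass, at an adjusted p of 0.0587 to 0.159, and it also missed the threshold without the filter on dim genes (0.0507).

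NDUFA12, a supernumerary neighbour of the same arm whose paralog NDUFAF2 holds its place during assembly, came next. It measured 12.32 and 12.32 with AICAR, against 12.06 and 12.03 with vehicle (log2), a difference of 0.27 (SE 0.0661, adjusted p = 0.0517) that did not pass. At the other end stood NDUFS1, the large iron-sulphur core subunit. It measured 10.58 and 10.58 with AICAR, against 10.82 and 10.88 with vehicle, a difference of -0.27 (SE 0.0678, adjusted p = 0.0572). For both genes the arrays of the groups did not overlap, and the adjusted p lay just over the threshold. Among the other N module genes, NDUFV3, NDUFA2 and NDUFS4 differed by 0.09 to 0.14, and NDUFV2, NDUFV1, NDUFA6 and NDUFS6 by -0.08 to -0.05, each with an adjusted p of 0.270 or more. NDUFA2, which has a thioredoxin-like fold, measured 12.21 and 12.16 with AICAR, against 12.00 and 12.12 with vehicle.

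The promoters of the genes at the ends of the range, and that of NDUFB4, are shown because the series concerns the PGC-1/ERR axis and nuclear genes of complex I are known targets of the factors ERRα, NRF1, GABPA and YY1. Each run holds 250 bases before and 50 after the RefSeq start (GRCh38.p14), read 5′ to 3′ on the gene's strand. Capitals mark matches to 4 patterns searched on both strands, TNAAGGTCA (ERR), GCGC followed by any base and TGCGC (NRF1), CCGGAAG (ETS factors such as GABPA) and AAGATGGCG (YY1). NDUFA7 lies at chr19:8321326-8321625 (minus strand), NDUFA12 at chr12:95003648-95003947 (minus), NDUFS1 at chr2:206159395-206159694 (minus, 1 of its 2 windows) and NDUFB4 at chr3:120596086-120596385 (plus). The window of NDUFS1 was chosen because it held a match, and its other window held none.
NDUFA7: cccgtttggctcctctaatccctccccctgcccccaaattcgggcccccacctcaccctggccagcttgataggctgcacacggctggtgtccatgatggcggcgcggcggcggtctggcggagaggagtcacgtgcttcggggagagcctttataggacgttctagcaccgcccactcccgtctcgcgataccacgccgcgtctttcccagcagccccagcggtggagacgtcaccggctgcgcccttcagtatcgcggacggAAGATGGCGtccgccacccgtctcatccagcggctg
NDUFA12: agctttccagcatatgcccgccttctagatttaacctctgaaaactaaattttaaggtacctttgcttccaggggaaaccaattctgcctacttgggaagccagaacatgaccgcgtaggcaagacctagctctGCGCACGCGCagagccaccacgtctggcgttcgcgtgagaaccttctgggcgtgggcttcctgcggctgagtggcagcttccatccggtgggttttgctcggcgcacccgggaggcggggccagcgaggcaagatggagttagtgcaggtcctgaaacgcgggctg
NDUFS1: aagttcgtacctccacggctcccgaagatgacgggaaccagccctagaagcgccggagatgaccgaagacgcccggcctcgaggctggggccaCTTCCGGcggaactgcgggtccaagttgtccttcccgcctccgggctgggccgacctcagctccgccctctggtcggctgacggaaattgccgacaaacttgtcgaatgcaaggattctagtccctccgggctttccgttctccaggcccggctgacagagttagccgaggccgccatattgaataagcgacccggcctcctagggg
NDUFB4: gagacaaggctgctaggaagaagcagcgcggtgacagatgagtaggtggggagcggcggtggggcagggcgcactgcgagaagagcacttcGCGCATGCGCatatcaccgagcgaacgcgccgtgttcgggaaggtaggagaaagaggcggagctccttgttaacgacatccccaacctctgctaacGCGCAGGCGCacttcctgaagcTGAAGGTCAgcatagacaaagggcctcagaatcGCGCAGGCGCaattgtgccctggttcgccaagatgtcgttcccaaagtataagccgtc

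The window of NDUFA7 held a YY1 pattern from 15 bases into the transcript, that of NDUFA12 an NRF1 pattern from 116 bases before the start, and that of NDUFS1 an ETS pattern from 157 bases before it. NDUFB4, a distal arm subunit, was the only one of 38 members with a promoter in the table whose window held the ERR pattern, 41 bases before the start, and it also held 3 NRF1 matches. On the arrays NDUFB4 measured 13.46 and 13.47 with AICAR, against 13.47 and 13.50 with vehicle, a difference of -0.02 (95% confidence interval -0.18 to 0.14). The ERR pattern occurred in 1.17% of all 27305 genes with a promoter and in 0.804% of the 11065 of them that were tested on the arrays. The YY1 pattern occurred in 6 of 38 members (15.8%), NDUFA6, NDUFA7, NDUFA9, NDUFB8, NDUFS4 and NDUFS7, against 2.14% of all genes and 4.22% of those tested. In all 6 it lay within the transcribed part of the window, and the pattern itself contains ATG, the usual start codon.

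The NRF1 pattern also occurred in 6 members (15.8%), against 6.98% of all genes and 12.2% of those tested, and the ETS pattern in 6 (15.8%), against 12.2% and 20.7%. The median log2 difference of the genes with a match was 0.09 for NRF1, 0.04 for ETS and 0.02 for YY1, and members without each pattern had medians of 0.09. Differences among the YY1 genes ran from -0.21 to 0.42 and among the ETS genes from -0.27 to 0.25, so genes that shared a pattern lay at both ends of the list. Of the 38 members, 21 held none of the 4 patterns in these windows, which says only that those letters are not there. The windows of members had a median GC content of 62.5%, and those of all genes 58.3%.

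The core subunits that carry flavin or iron-sulphur clusters, or lie with them in the Q module, had mostly negative differences. Past the threshold were 0 of 5 (limma), where 9.82% of all genes were called. At an unadjusted p below 0.05 (limma) 2 were negative, against 13.3% of all genes on that side. Differences were negative for 4 and positive for 1 (20% positive, against 52.4% of all genes), with a median of -0.07 (log2). The 28 supernumerary subunits had 18 positive differences (64.3%, against 52.4% of all genes) and a median of 0.10. The difference between these groups was not tested. NDUFV1, which binds NADH and the flavin, measured 12.40 and 12.37 with AICAR, against 12.46 and 12.44 with vehicle (difference -0.07, 95% confidence interval -0.23 to 0.09). Its partner NDUFV2 measured 12.33 and 12.38 with AICAR, against 12.38 and 12.43 with vehicle (difference -0.05, -0.22 to 0.12), and its groups overlapped. For NDUFV1 both AICAR arrays lay below both vehicle arrays.

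In the Q module, which hands the electrons to ubiquinone, 3 of 4 genes were measured. The count that passed was 0 (limma), where 9.82% of all genes were called. At an unadjusted p below 0.05 (limma) there was 1 negative member, against 13.3% of all genes. NDUFS7, which holds the last cluster before ubiquinone, measured 10.40 and 10.21 with AICAR, against 10.52 and 10.51 with vehicle, a difference of -0.21 (SE 0.0848, adjusted p = 0.185). NDUFS3, a core subunit without a cluster, measured 11.83 and 11.67 with AICAR, against 11.66 and 11.66 with vehicle, a difference of 0.09 (SE 0.0796, adjusted p = 0.531). In both genes the vehicle arrays almost coincided while the AICAR arrays lay apart. Without AICAR replicate 1 and without AICAR replicate 2, NDUFS3 differed by 0.0077 and 0.17, and NDUFS7 by -0.305 and -0.112. NDUFA5, a supernumerary subunit, measured 11.69 and 12.03 with AICAR, against 11.69 and 11.78 with vehicle (difference 0.12, SE 0.120, adjusted p = 0.569). Its sign came from 1 array: without AICAR replicate 2 it differed by -0.05. NDUFS8, another core subunit with clusters, had no probe set of its own.

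**Figure D2:**
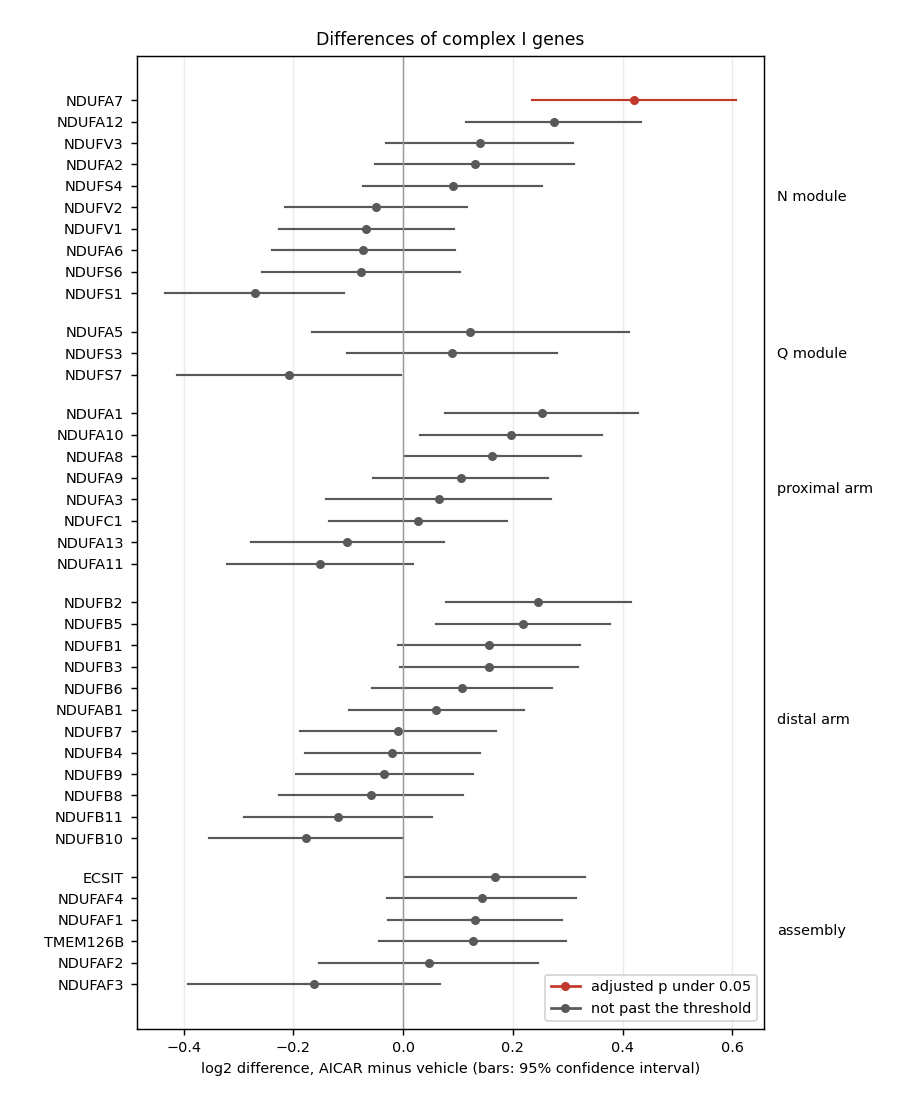
Log2 difference, AICAR minus vehicle, of each complex I gene with its 95% confidence interval from limma (x axis), grouped by role as N and Q modules, proximal and distal membrane arm, and assembly. NDUFA7, in red, is the gene past the threshold, at 0.42, and the other intervals lie between -0.43 and 0.43.

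The proximal membrane arm, next to the ubiquinone site, had 8 of 10 genes measured. The count past the threshold was 0 (limma), where 9.82% of all genes were called. At an unadjusted p below 0.05 (limma) there were 3 positive members, against 12.8% of all genes. Differences were positive for 6 (75%, against 52.4% of all genes), with a median of 0.09. NDUFA1, a small X-linked membrane subunit, measured 12.50 and 12.53 with AICAR, against 12.21 and 12.32 with vehicle, a difference of 0.25 (SE 0.0733, adjusted p = 0.0852). NDUFA10, which resembles nucleoside kinases, measured 12.32 and 12.24 with AICAR, against 12.07 and 12.09 with vehicle, a difference of 0.20 (SE 0.0691, adjusted p = 0.135). In both genes the groups were separate. NDUFA8, an intermembrane space subunit with a twin cysteine motif, differed by 0.16 and NDUFA9, at the junction of the arms, by 0.11, while NDUFA3 and NDUFC1 differed by 0.07 and 0.03 with overlapping groups. The negative ones were NDUFA13, also known as GRIM-19, at -0.10 and NDUFA11. NDUFA11 measured 11.51 and 11.41 with AICAR, against 11.61 and 11.61 with vehicle (difference -0.15, SE 0.0706, adjusted p = 0.234).

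The distal membrane arm, which holds the far proton pumps, had all 12 genes measured. The count past the threshold was 0 (limma), where 9.82% of all genes were called. At an unadjusted p below 0.05 (limma) there were 2 positive members and 1 negative, against 12.8% and 13.3% of all genes. Differences were positive for 6 and negative for 6 (50% positive, against 52.4% of all genes), with a median of 0.03. NDUFB2 measured 13.33 and 13.24 with AICAR, against 13.05 and 13.03 with vehicle, a difference of 0.25 (SE 0.0696, adjusted p = 0.0786). NDUFB10, a subunit with a twin cysteine motif, measured 11.99 and 11.90 with AICAR, against 12.09 and 12.15 with vehicle, a difference of -0.18 (SE 0.0731, adjusted p = 0.189). These extremes of the arm thus pointed in opposite directions, each with groups that did not overlap. NDUFB1 measured 12.76 and 12.81 with AICAR, against 12.60 and 12.66 with vehicle (difference 0.16, adjusted p = 0.214). NDUFB5 differed by 0.22 (adjusted p = 0.0939), NDUFB3 by 0.16, NDUFB6 by 0.11 and NDUFAB1, the mitochondrial acyl carrier protein, by 0.06. NDUFB11, which is X-linked, differed by -0.12, and NDUFB7, NDUFB9 and NDUFB8 by -0.06 to -0.0089.

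Among the 6 assembly factors on the list, 0 passed the threshold (limma), where 9.82% of all genes were called. At an unadjusted p below 0.05 (limma) there was 1, on the positive side, against 12.8% of all genes. Differences were positive for 5 (83.3%, against 52.4% of all genes), and the median was 0.13. ECSIT, NDUFAF1 and TMEM126B belong to the assembly complex that builds part of the membrane arm. ECSIT measured 9.58 and 9.56 with AICAR, against 9.37 and 9.43 with vehicle, a difference of 0.17 (SE 0.0682, adjusted p = 0.184). NDUFAF1 and TMEM126B differed by 0.13 each, but the second probe set of TMEM126B, below the dim bound, by -0.03. In ECSIT, NDUFAF1 and TMEM126B both AICAR arrays were the higher ones, which held for 28.5% of all genes tested. NDUFAF3 and NDUFAF4 work as a pair on the Q module. NDUFAF4 differed by 0.14 (adjusted p = 0.265), but its second probe set by -0.07, and NDUFAF3 differed by -0.16. NDUFAF3 measured 10.21 and 9.96 with AICAR, against 10.24 and 10.25 with vehicle (SE 0.0951, adjusted p = 0.334), and without AICAR replicate 2 its difference was -0.04. NDUFAF2, the late factor of the N module, differed by 0.05 with overlapping groups.

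Of 13 other assembly factors of complex I, outside the list, 0 rose and 2 fell (15.4%). Over all genes 9.82% were called, and 5.19% fell. Differences were negative for 10 and positive for 3 (23.1%, against 52.4% of all genes), with a median of -0.08. At an unadjusted p below 0.05 (limma) there were 1 positive and 4 negative, against 12.8% and 13.3% of all genes. FOXRED1, a flavoprotein needed for assembly, measured 8.89 and 8.83 with AICAR, against 9.38 and 9.37 with vehicle, and was 1.43-fold lower (log2 -0.51, SE 0.0678, adjusted p = 0.0120). NDUFAF5, which hydroxylates NDUFS7, measured 9.35 and 9.31 with AICAR, against 9.70 and 9.62 with vehicle, and was 1.25-fold lower (log2 -0.33, SE 0.0700, adjusted p = 0.0381). In both genes the groups were well separated. With either vehicle array left out neither passed; without AICAR replicate 1 or 2, without the filter on dim genes, with the mean of all probe sets or with the replicate number as a block, FOXRED1 alone passed. After quantile normalization FOXRED1 fell and DMAC1 rose, and NDUFAF5 did not pass. ACAD9, a partner of ECSIT, NDUFAF1 and TMEM126B in their complex, had a difference of the other sign, -0.27 (adjusted p = 0.0610). DMAC1, on the positive side, differed by 0.27 in the main fit (limma adjusted p = 0.0595).

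Few nuclear genes of complexes II to V passed the test. The median difference of the 58 tested was 0.02. Both AICAR arrays lay above both vehicle arrays in 34.5% and below in 22.4%, against 28.5% and 28% of all genes. At an unadjusted p below 0.05 (limma) there were 5 positive and 3 negative, against 12.8% and 13.3% of all genes. Of the 58 genes, 2 rose and 0 fell (3.45% called, against 9.82% of all genes). One of the 2 was ATPAF1, an assembly factor of the catalytic part of ATP synthase, at 10.47 and 10.45 with AICAR, against 9.95 and 9.98 with vehicle (log2 0.49, SE 0.0664, adjusted p = 0.0127). The other was COX7A2L (log2 0.40), which helps join complexes III and IV. With either vehicle array left out neither passed, and ATPAF1 alone passed without AICAR replicate 2. With the mean of all probe sets ATPAF1 did not pass, and the genes called were COX7A2L (higher) and COX19 (lower). Whether complex I differed from these genes was not tested.

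**Figure D3:**
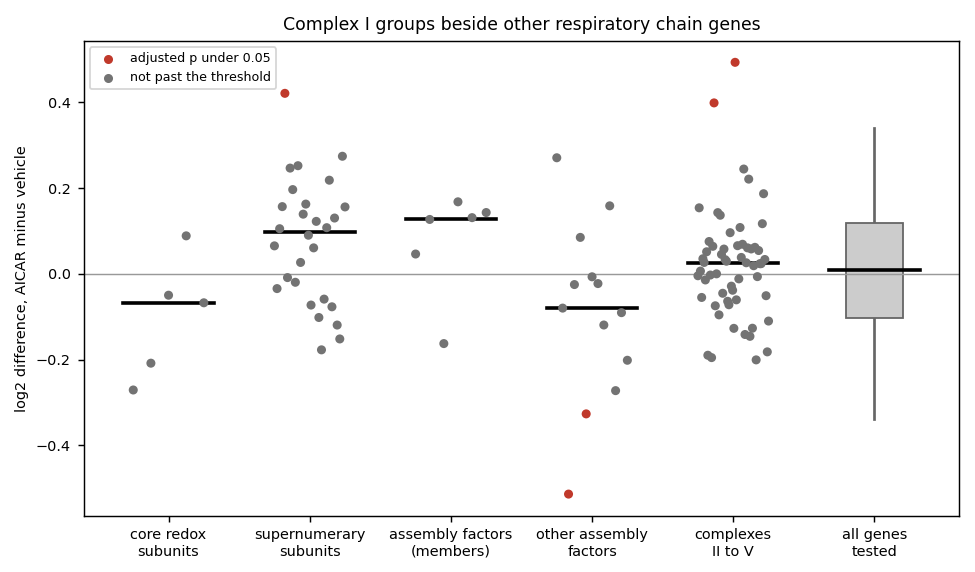
Log2 difference, AICAR minus vehicle (y axis), of single genes in the core redox subunits, supernumerary subunits and assembly factors of complex I, in other complex I assembly factors and in complexes II to V, with lines at the medians; the box shows all 13842 genes tested (25th to 75th percentile, whisker 5th to 95th). The median is -0.07 for the core redox subunits, 0.10 for the supernumerary subunits, 0.13 for the listed assembly factors and -0.08 for the other assembly factors, and red marks genes past the threshold.

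The direction of a small difference depended on which probe set was read. Of the 39 members, 21 had several probe sets, and in 8 of these all probe sets had the same sign. In 5 genes, NDUFA2, NDUFA10, NDUFB1, NDUFB2 and NDUFS1, probe sets lay more than 0.15 (log2) on opposite sides of 0. The opposing probe sets of NDUFA2 (mean 5.483), NDUFA10 (4.755) and NDUFB1 (6.104) lay below the dim bound of 6.11. Those of NDUFB2 (7.368) and NDUFS1 (7.148) lay above it. The probe sets that were not used were dimmer, and 11 of 31 lay below the dim bound. Of all 70 member probe sets, 0 passed when all 54613 probe sets of the array were fitted together, where 1.49% were called (limma); 10 of them, 6 positive and 4 negative, had an unadjusted p under 0.05.

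NDUFB2 had 2 bright probe sets that differed by 0.25 and 0.26 and a dimmer one at -0.20. NDUFB1 had a bright one at 0.16 and one below the dim bound at -0.29, and the mean of its probe sets differed by -0.065. The 5 probe sets of NDUFS1 ran from -0.27 to 0.17, with 3 negative. The second probe set of NDUFA6, a subunit that binds the acyl carrier protein, measured 9.57 and 9.42 with AICAR, against 9.80 and 9.82 with vehicle, a difference of -0.31 (unadjusted p = 0.0119), while its brighter one differed by -0.07. NDUFA7 was among the genes whose probe sets shared a sign.

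**Figure D4:**
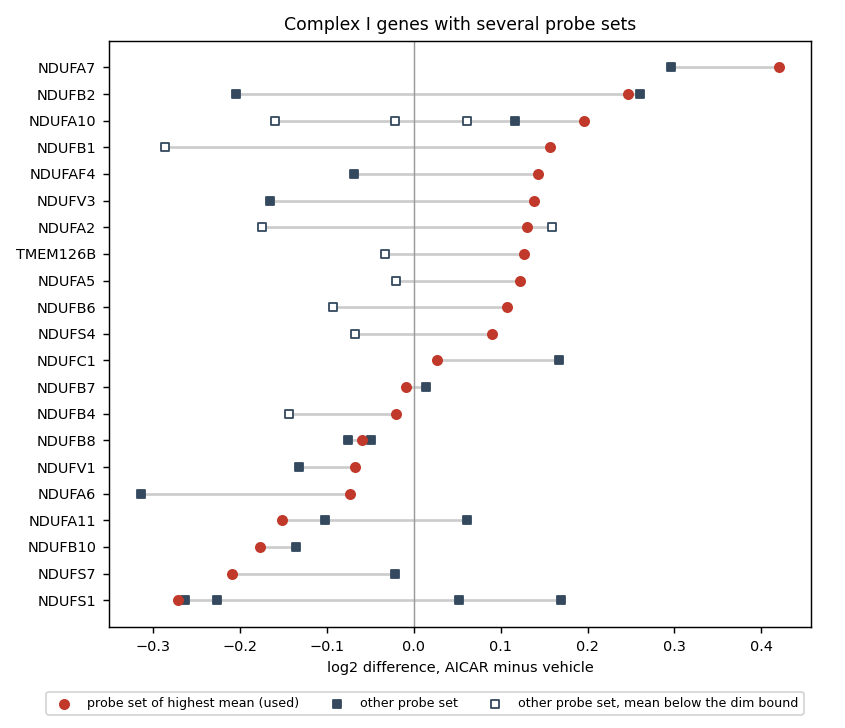
Log2 difference, AICAR minus vehicle (x axis), of every probe set of the 21 complex I genes with several probe sets; red circles are the probe sets used, filled squares other probe sets, and open squares other probe sets with a mean below the dim bound. Both probe sets of NDUFA7 lie to the right of 0, and those of NDUFB1, NDUFB2, NDUFA2, NDUFA10 and NDUFS1 lie more than 0.15 away on both sides.

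The arrays as a whole were alike, with medians over 54675 probe sets of 6.38 to 6.40 (log2) with AICAR and 6.37 to 6.38 with vehicle. All 7 markers of BT474 cells (ERBB2, GRB7, KRT8, KRT18, EPCAM, GATA3 and ESR1) lay above the dim bound, with a mean level of 12.3 on every array, and 6 of 9 markers of fibroblasts, endothelium and blood also lay above it. The mean level of these 9 was 6.45 to 6.49 with AICAR and 6.51 to 6.53 with vehicle. One of them, COL1A1, fell (log2 -0.63, adjusted p = 0.0209), as did ESR1 among the BT474 markers (log2 -0.31, adjusted p = 0.0411); their part in the values above was not tested. Of the 4 list members without a value, NDUFC2, NDUFS5 and NDUFS8 shared their probe sets with other symbols. NDUFA4, now counted with complex IV, had no probe set under that symbol once symbols were updated, and is not analysed here.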

How the data were processed

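Biotin-labelled RNA of BT474 cells was measured on 4 Affymetrix arrays, 2 with AICAR and 2 with vehicle. The deposited table holds a log2 level for each probe set on each array, made by the authors with Affymetrix Expression Console, per the submitters' processing notes. Version, summarization and background method are not given there. Whether differences of dim probe sets are too small can therefore not be told. The levels were not normalized again. For arrays, their number limits the precision.

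Of 42898 annotated probe sets, 41091 with 1 symbol were used and 1801 with several were not. For 41037 of those used, the Entrez ID was found in the RefSeq table of GRCh38.p14. Their symbols were taken from it, whether or not they changed. Each gene was read from its probe set of highest mean, and 5933 genes below the 30th percentile of gene means were left out, none of them members. Differences come from limma 3.58.1 in R 4.3.3 (lmFit, then eBayes without a trend), adjusted by Benjamini-Hochberg over 13842 genes, two-sided; rose and fell mean an adjusted p under 0.05. An exact permutation test of 2 against 2 arrays cannot give a p below 0.333 and was not used. The fit was tested on simulated data. Members, lists and roles were chosen with earlier results of these data known. Values on every array are given for called members, the extremes of each role, core subunits and genes with opposed probe sets; NDUFA12, NDUFB4 and the second probe set of NDUFA6 were added after their values were seen. Motifs and promoters (Python 3.11.15) came from RefSeq sequences. The alternatives tried were other filters on dim genes, 2 other normalizations, moderated variances with a trend, the mean of all probe sets, each probe set on its own, an adjusted p under 0.1, leaving out each array, and a block for the replicate number.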

Additional observations from a re-analysis of the deposited data

How the results depend on the processing

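Which complex I genes passed depended on the settings, while the list median was positive under every setting tried. The count of members past the threshold, 1 in the report, was 0 without the filter on dim genes, 6 with that filter at the 50th percentile (5 higher, 1 lower), 3 after quantile normalization, 10 with a trend and robust variances (8 higher, 2 lower), 2 with averaged probe sets and 6 at an adjusted p under 0.1. As shares of the members these were 0%, 15.4%, 7.69%, 25.6%, 5.13% and 15.4%, beside 3.66%, 18.3%, 10.7%, 17.8%, 8.98% and 16.4% of all genes in the same fits. It was 0 in each fit that left out 1 array, where 120 to 985 of all genes passed. For complexes II to V the count was 0 to 2 without 1 array and 5 with a trend and robust variances. For the other assembly factors it was 0 to 1 without 1 array, 1 without the filter on dim genes or with averaged probe sets, and 4 with the 50th percentile, with a trend or at an adjusted p under 0.1. Over all genes it was 723 without the filter, 2466 with a trend and 2266 at an adjusted p under 0.1.

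The median member difference was 0.0668 to 0.0937 over the fits without 1 array, 0.119 after quantile normalization (0.0296 over all genes) and 0.0373 with averaged probe sets. Signs were followed for the called member, the extremes of each role, the core subunits and the genes with opposed probe sets. Among these they turned for NDUFA5 without AICAR replicate 2 (-0.0524, with a range of -0.0524 to 0.297 over the fits without 1 array). They turned for NDUFB1 with the mean of its probe sets (-0.065). Single dimmer probe sets turned the sign of NDUFA5 (-0.0204), NDUFB1 (-0.286), NDUFB2 (-0.205), NDUFA2 (-0.175), NDUFA10 (-0.16 and -0.0213), NDUFA11 (0.0614) and NDUFS1 (0.169 and 0.0525). Of the 21 members with several probe sets, 13 held both signs. The others of these were NDUFV3 (0.139 and -0.1657), NDUFAF4, NDUFB6, NDUFB7, NDUFS4 and TMEM126B. The causes were not tested. With the replicate number as a block, 1 complex I member passed, 2 genes of complexes II to V, 1 other assembly factor and 1163 of all genes. The labels do not say that same-numbered arrays shared a dish or day, so the numbers are not taken as pairs. Deviations of same-numbered arrays had an r of -0.07 across genes. With 1 such deviation per group, this value cannot decide whether the arrays were paired.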
